A study of Mus musculus with 12 samples.

Results

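The subcortical maternal complex and the NLR genes related to it were followed in mouse embryonic stem cells that differed in Tet2. The set held 9 genes of the 35976 symbols in the count table: Khdc3, Ooep, Tle6, Nlrp5, Padi6, Nlrp14, Nlrp4a, Nlrp4c and Nlrp4f. Its rows were found by symbol, and all 9 were present. The set was chosen from the counts of these same 12 libraries, with earlier levels and calls known, so the levels, fold changes and calls of the 9 genes are a description and support nothing by themselves. Adjusted p-values are given for genes outside the set.

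The cells were V6.5 mouse embryonic stem cells grown on gelatin without feeders in serum medium with LIF, CHIR99021 (an inhibitor of GSK3) and PD0325901 (an inhibitor of MEK), with no treatment. The series concerns TET2, a dioxygenase that oxidises 5-methylcytosine in DNA, carrying the leukaemia-derived change N1300T. There were 4 groups of 3 libraries, lettered A, B and C. By their genotype labels, N1300T 49 and N1300T 81 both carried Tet1KO with Tet2 N1300T, DKO (numbered 41) carried knockouts of Tet1 and Tet2, and Tet1KO carried the Tet1 knockout with no change of Tet2 named, so the Tet1 knockout was common to all 12. The labels do not say what 41, 49 and 81 stand for, whether each is 1 clone, or how the N1300T change was introduced. The labels do not say either whether A, B and C were separate cultures. The p-values reflect the spread among these libraries, which may be technical. With 1 set of 3 libraries each for DKO and Tet1KO, genotype and other properties of those cells cannot be told apart.

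Total counts ran from 31515011 to 57054862 per library. Counts scaled to library size (CPM) use edgeR's TMM library sizes, and a count of 3, the floor used here, was worth 0.0516 to 0.0949 CPM. Tet2 averaged 135 ± 11.2, 142 ± 13.0, 94.5 ± 3.05 and 160.4 ± 19.3 CPM in N1300T 49, N1300T 81, DKO and Tet1KO (SD, n = 3 each), and Tet1, labelled as knocked out, 153 to 174 CPM in every group. Counts summed over a gene cannot show a small deletion. The 12 pluripotency markers summed to 6583 to 7169 CPM in all libraries.

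In the mouse oocyte, KHDC3 (Filia), OOEP (Floped), TLE6, NLRP5 (Mater) and PADI6 are stored as proteins and assemble beneath the plasma membrane into the subcortical maternal complex. Mothers that lack one of its central members produce embryos that arrest in early cleavage. Mouse Nlrp genes have been multiplied by duplication, and many are transcribed mainly in oocytes. Khdc3 is also known outside the oocyte, as a protein of mouse embryonic stem cells that acts in the response to DNA damage.

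The promoters of these genes differ widely in CpG, the dinucleotide whose methylated cytosine TET enzymes oxidise. Methylation itself was not measured in these libraries. RefSeq's GRCm38.p6 table, the assembly called mm10, holds a window of 300 bases (250 before the start and 50 after it) for 8 of the 9 genes. Nlrp14 is the other. The sequences of Khdc3 and Nlrp4f are shown because their transcripts were several times lower in N1300T than in Tet1KO. Ooep and Tle6 are shown as members of the same complex with CpG-rich windows, and Nlrp4a and Nlrp4c as near relatives that differ in level. All read 5′ to 3′ on the gene's own strand, and capitals mark CpG.
Khdc3, chr9:73102148-73102447, plus strand: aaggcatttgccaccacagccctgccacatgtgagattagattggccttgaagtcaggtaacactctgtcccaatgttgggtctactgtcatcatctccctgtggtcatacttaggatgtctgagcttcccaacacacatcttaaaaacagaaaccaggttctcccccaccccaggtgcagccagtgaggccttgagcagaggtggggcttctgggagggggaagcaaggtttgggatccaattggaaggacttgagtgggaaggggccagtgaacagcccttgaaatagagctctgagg
Nlrp4f, chr13:65205667-65205966, minus strand: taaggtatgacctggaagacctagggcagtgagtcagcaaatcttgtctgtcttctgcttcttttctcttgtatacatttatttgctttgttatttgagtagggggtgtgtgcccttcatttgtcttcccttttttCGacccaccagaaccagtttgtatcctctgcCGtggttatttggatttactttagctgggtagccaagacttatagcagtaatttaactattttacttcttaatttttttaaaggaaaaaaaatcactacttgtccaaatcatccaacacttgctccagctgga
Ooep, chr9:78378539-78378838, minus strand: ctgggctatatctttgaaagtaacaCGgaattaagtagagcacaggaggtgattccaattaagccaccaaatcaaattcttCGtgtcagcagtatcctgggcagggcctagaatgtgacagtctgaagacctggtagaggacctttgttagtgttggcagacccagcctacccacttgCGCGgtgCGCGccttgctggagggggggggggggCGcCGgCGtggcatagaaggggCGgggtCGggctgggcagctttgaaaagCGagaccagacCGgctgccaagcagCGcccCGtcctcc
Tle6, chr10:81600851-81601150, minus strand: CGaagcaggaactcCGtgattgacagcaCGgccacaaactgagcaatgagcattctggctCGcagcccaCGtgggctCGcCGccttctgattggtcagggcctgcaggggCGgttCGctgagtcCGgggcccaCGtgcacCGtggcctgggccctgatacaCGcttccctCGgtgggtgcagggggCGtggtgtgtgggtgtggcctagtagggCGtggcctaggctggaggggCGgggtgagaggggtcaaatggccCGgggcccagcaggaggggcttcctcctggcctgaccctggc
Nlrp4a, chr7:26435364-26435663, plus strand: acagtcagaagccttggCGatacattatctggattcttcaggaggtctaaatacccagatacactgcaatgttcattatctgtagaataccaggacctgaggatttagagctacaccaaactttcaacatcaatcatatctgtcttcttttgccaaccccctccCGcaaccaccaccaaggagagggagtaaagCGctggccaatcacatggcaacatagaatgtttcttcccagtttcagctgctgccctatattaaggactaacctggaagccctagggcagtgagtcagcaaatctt
Nlrp4c, chr7:6044911-6045210, plus strand: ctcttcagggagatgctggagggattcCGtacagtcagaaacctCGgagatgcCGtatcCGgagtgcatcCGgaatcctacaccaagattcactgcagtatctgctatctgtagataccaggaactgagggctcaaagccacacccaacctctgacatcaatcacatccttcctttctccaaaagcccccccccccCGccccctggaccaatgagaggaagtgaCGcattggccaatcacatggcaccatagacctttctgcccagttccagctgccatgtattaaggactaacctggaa

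The Khdc3 window holds no CpG, although 52.7% of its bases are G or C. Only 5.43% of the 32851 mouse promoter windows in the table hold none, and the median window holds 7 (quartiles 3 and 20). The Nlrp4f window holds 2 CpGs and is poor in G and C (38.7%). The other windows hold 2 CpGs in Padi6, 3 and 5 at the RefSeq starts of Nlrp4a, 7 in Nlrp4c, 1 and 9 at those of Nlrp5, 15 in Ooep and 18 and 3 at those of Tle6. Windows therefore spread over both sides of the mouse median. Within the RefSeq gene spans some of these starts lie downstream of the outermost one, as for Khdc3, whose span opens at 73101381.

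**Figure D1:**
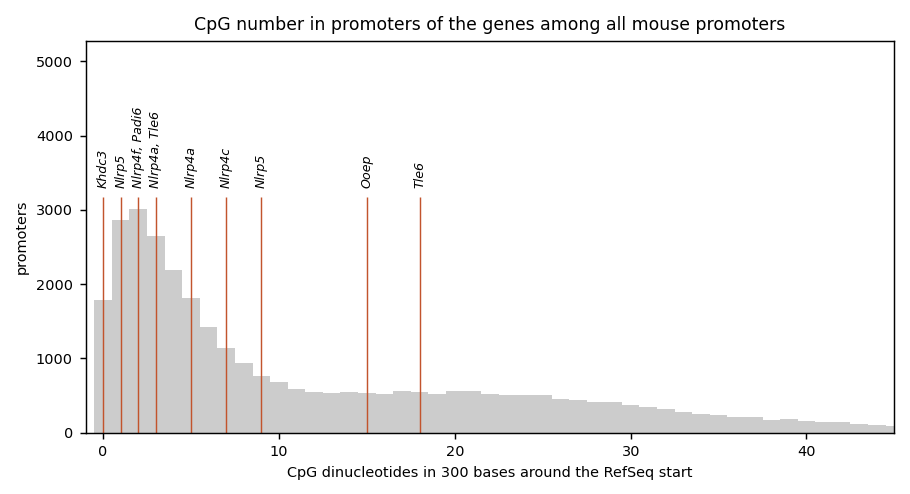
CpG dinucleotides per promoter window of 300 bases (x axis) against the number of mouse RefSeq promoters with that number (y axis, grey bars, 32851 promoters, the tail beyond the axis not drawn), with vertical lines for the windows of 8 genes of the set, of which Nlrp4a, Nlrp5 and Tle6 have 2 each. Khdc3 stands at 0, Nlrp4f and Padi6 at 2, and Ooep and one Tle6 start at 15 and 18.

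Some short motifs were looked up in the same windows on both strands, as letters only. The E-box CANNTG, read by bHLH factors such as FIGLA, occurs in 72.3% of all windows and in every window of the set, with 5 matches in Khdc3, 3 in Nlrp4f and 1 in Ooep. TAATTG and TAATTA, letters bound by homeodomain factors such as NOBOX, occur in 8.0% and 5.29% of all windows. Ooep and Padi6 hold a TAATTG and one Nlrp5 window holds a TAATTA. The palindrome CACGTG is a form of CANNTG, and occurs in 7.15% of all windows. The CpG-rich Tle6 window holds it 2 times, and both matches are also among its E-boxes. Aligned end to end, windows were 63.3% identical for Nlrp4a (the start shown) and Nlrp4c, beside 46.4% to 53.9% for the other pairs of Nlrp4 and Nlrp5 windows. Such an alignment misses stretches shared at different offsets. The Nlrp4f window opens with letters much like those that close the Nlrp4a window shown, so its values understate likeness to Nlrp4a.

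Khdc3 (chromosome 9, 73101381 to 73106631, plus strand) encodes a KH-domain protein that binds NLRP5 in the complex. Its level was 7.84, 9.80 and 4.75 CPM in libraries A, B and C of N1300T 49 and 7.25, 8.04 and 4.46 CPM in N1300T 81. DKO libraries had 3.82, 5.06 and 3.72 CPM, against 25.4, 32.3 and 19.5 CPM in Tet1KO. Every N1300T and DKO library lay below every Tet1KO library, with the lowest Tet1KO value at 19.5 and the highest N1300T value at 9.80 CPM. The fitted log2 fold change was -1.87 ± 0.19 (SE) in N1300T, a level 3.65-fold lower, and -2.62 ± 0.24 in DKO, 6.16-fold lower, both against Tet1KO. Between N1300T and DKO the libraries overlapped (0.76 ± 0.22), though within each letter every N1300T library lay above the DKO library. The difference was called only without N1300T 49 C, N1300T 81 C, Tet1KO B or Tet1KO C (0.76 to 0.87) or with no filter or a block on the letter. Taken singly, N1300T 49 lay at -1.77 ± 0.24 and N1300T 81 at -1.96 ± 0.23 against Tet1KO, and the preparations differed by 0.18 ± 0.24. In bulk RNA, fewer cells that transcribe a gene and less of its RNA per cell cannot be told apart.

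Reads of Khdc3 can be shared with another annotated gene. In GENCODE M21, Gm20509 overlaps Khdc3 on the same strand, and 34.1% of the 50-base stretches of Khdc3 transcripts also occur there. Gm20509 has no row in the count table, and the sources used here do not say how such reads were counted. For the other genes the share of stretches found elsewhere was 10.7% in Nlrp4c (mainly Nlrp4e, which had no counts), 6.55% in Nlrp5, 5.95% in Nlrp4f (mainly Nlrp4g), 2.63% in Nlrp4a, 1.39% in Ooep, 0.712% in Tle6 and 0 in Nlrp14 and Padi6.

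Ooep (chromosome 9, 78376903 to 78378588, minus strand) encodes a small KH-like protein at the core of the complex. It had 79.2, 70.5 and 72.9 CPM in N1300T 49, 64.9, 76.2 and 70.3 CPM in N1300T 81, 60.5, 65.6 and 59.6 CPM in DKO, and 74.3, 73.2 and 83.1 CPM in Tet1KO. The DKO libraries lay below all of Tet1KO and below all of N1300T 49, while N1300T 81 overlapped both DKO and Tet1KO. The fitted difference was -0.09 ± 0.06 for N1300T and -0.31 ± 0.07 for DKO, each against Tet1KO. For N1300T against DKO it was 0.23 ± 0.06 and was not called. That difference passed without N1300T 81 A (0.25) or Tet1KO C (0.23). It also passed with DESeq2 (0.22), with no filter (0.23) and with a block on the letter (0.23). On the scale of mean CPM per kb of merged exons, Ooep at 33.1 was the most abundant gene of the set, ahead of Khdc3 at 5.36.

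The balance between Khdc3 and Ooep transcripts can be read within a library, free of library size. Khdc3 counts were 9.89%, 13.9% and 6.51% of the Ooep counts in N1300T 49, 11.2%, 10.5% and 6.35% in N1300T 81, and 6.31%, 7.72% and 6.24% in DKO. In Tet1KO they were 34.1%, 44.1% and 23.4%. No Tet1KO library overlapped any other.

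Tle6 (chromosome 10, 81590904 to 81601185, minus strand) encodes a relative of the Groucho co-repressors that belongs to the core of the complex. It had 4.01, 4.39 and 2.82 CPM in N1300T 49, 4.96, 5.78 and 2.92 CPM in N1300T 81, 2.48, 3.77 and 2.28 CPM in DKO, and 4.65, 4.67 and 3.56 CPM in Tet1KO. All groups overlapped at least one other, and DKO held the 2 lowest libraries. Fitted differences were -0.05 ± 0.21 (N1300T) and -0.61 ± 0.24 (DKO) against Tet1KO and 0.56 ± 0.21 for N1300T against DKO, and none passed the threshold. Without DKO B (-0.85) or N1300T 81 C (-0.61) the difference of DKO from Tet1KO was called. That of N1300T from DKO was called without N1300T 81 C (0.68). Both differences were also called with no filter (-0.61 and 0.56) and with a block on the letter (-0.61 and 0.54). Within each letter, DKO was the lowest of the 4 groups. In RefSeq the 3′ end of Tle6 shares 1678 bases with Tle2, while in GENCODE M21 no gene overlaps Tle6. Which annotation was used for counting, and whether it used strand, is not given, so reads there cannot be assigned with certainty.

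The remaining proteins of the complex were hardly represented in the RNA. Nlrp5 (chromosome 7, 23385889 to 23441923), whose product is a central member of the complex, had 2 counts in N1300T 49 A, 2 in N1300T 81 C and 0 in the other 10 libraries. Padi6 (chromosome 4, 140727355 to 140742643), of the peptidylarginine deiminase family and needed for the fibrous lattices of the egg cytoplasm, had 0, 6 and 0 counts in N1300T 49, 8, 11 and 2 in N1300T 81, 6, 2 and 6 in DKO, and 4, 12 and 6 in Tet1KO. Both failed the filter on low counts, and Padi6 groups overlapped one another. Each set of 3 libraries thus held Ooep, Khdc3 and Tle6 RNA well above the floor and Nlrp5 RNA at or below it.

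**Figure D2:**
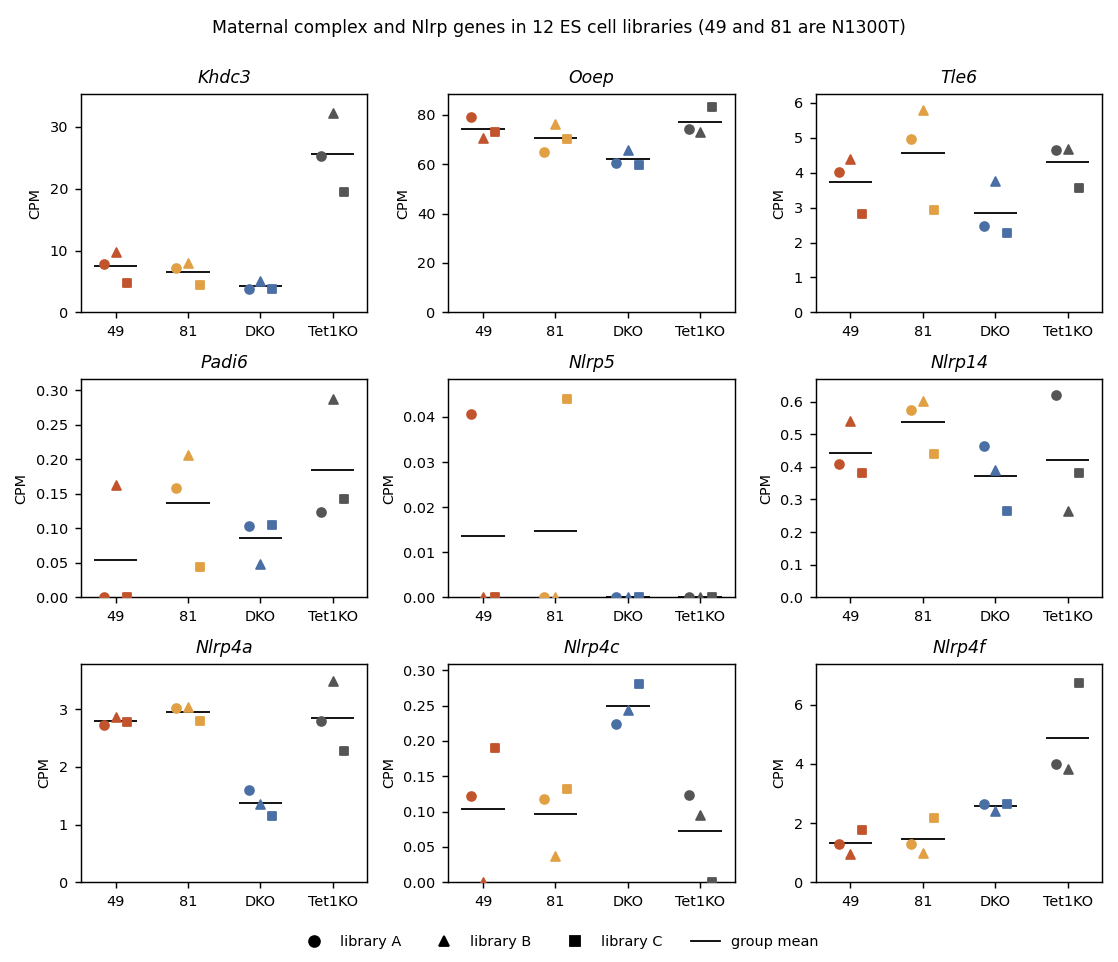
Level in CPM (y axis, starting at 0, scale differing by panel) of each gene of the set in N1300T 49, N1300T 81, DKO and Tet1KO (x axis), with a point per library (circle A, triangle B, square C) and a bar at the group mean (n = 3). Tet1KO stands alone at the top for Khdc3 (19.5 to 32.3 CPM) and Nlrp4f (3.83 to 6.74 CPM), DKO alone at the bottom for Nlrp4a (1.16 to 1.60 CPM), and Nlrp5 is at 0 in 10 of 12 libraries.

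Nlrp4f (chromosome 13, 65177111 to 65205716, minus strand) encodes an NLR protein found with the complex in mouse oocytes. It had 1.28, 0.948 and 1.77 CPM in N1300T 49 and 1.28, 0.995 and 2.15 CPM in N1300T 81. DKO had 2.63, 2.41 and 2.65 CPM, against 4.0, 3.83 and 6.74 CPM in Tet1KO. The 3 genotypes formed a ladder without overlap, N1300T lowest, DKO between and Tet1KO highest. Fitted log2 fold changes were -1.81 ± 0.23 (3.50-fold lower) for N1300T and -0.92 ± 0.26 (1.90-fold lower) for DKO, each against Tet1KO, and -0.88 ± 0.24 for N1300T against DKO. The call in DKO against Tet1KO was lost without any 1 of the DKO libraries or without Tet1KO C, where the difference was -0.61 to -0.95, and that between N1300T and DKO was lost in 10 of 20 alternative settings.

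Nlrp4a (chromosome 7, 26435113 to 26476142, plus strand) is an Nlrp4 paralogue. Its level was 2.73, 2.87 and 2.78 CPM in N1300T 49, 3.02, 3.04 and 2.79 CPM in N1300T 81, 1.60, 1.36 and 1.16 CPM in DKO, and 2.79, 3.49 and 2.28 CPM in Tet1KO. DKO stood below all other libraries, and N1300T lay within the range of Tet1KO. The fitted difference was 0.01 ± 0.15 for N1300T and -1.05 ± 0.19 (2.08-fold lower) for DKO, each against Tet1KO, and 1.06 ± 0.16 (2.09-fold higher) for N1300T against DKO.

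Nlrp4c and Nlrp14 were scarce. Nlrp4c (chromosome 7, 6045161 to 6105149) had 6, 0 and 6 counts in N1300T 49, 6, 2 and 6 in N1300T 81, 13, 10 and 16 in DKO, and 4, 4 and 0 in Tet1KO. As CPM, DKO (0.224 to 0.281) lay above N1300T (0 to 0.190) and Tet1KO (0 to 0.124) in every library, the reverse of Nlrp4a. Nlrp4c failed the filter on low counts, so it was not in the main test. DESeq2 and edgeR with no filter called 0 genes of the set higher in DKO against Tet1KO. Nlrp14 (chromosome 7, 107113455 to 107198103), which in mice is needed for female fertility, averaged 0.443 ± 0.0867 CPM in N1300T 49, 0.538 ± 0.0862 in N1300T 81, 0.372 ± 0.102 in DKO and 0.421 ± 0.182 in Tet1KO, and its groups overlapped. Per kb of merged exons, Nlrp4f (0.661 CPM), Nlrp4a (0.515) and Nlrp14 (0.125) exceeded Padi6 (0.0455), Nlrp4c (0.0326) and Nlrp5 (0.00146), with Tle6 at 1.25.

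The Nlrp4 genes are close relatives in sequence. The longest open reading frames of GENCODE transcripts were 86.6% identical in nucleotides between Nlrp4a and Nlrp4c, 80.8% between Nlrp4a and Nlrp4f and 80.5% between Nlrp4c and Nlrp4f. Their identity with Nlrp5 and Nlrp14 was 54.8% to 56.9%. On this measure Tle6 and Padi6, of different families, reached 53.9%, and other pairs across families lay lower, down to 14.8% for Ooep with Nlrp5. The values with Nlrp5 and Nlrp14 thus stand little above the highest of these. In CPM, the paralogues nearest in sequence, Nlrp4a and Nlrp4c, lay on opposite sides of the other groups in DKO. Nlrp4c had only 0 to 16 counts per library. Neither DESeq2 nor edgeR with no filter called Nlrp4c higher in DKO than in Tet1KO.

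Over the set, 6 genes passed the filter (Khdc3, Ooep, Tle6, Nlrp4a, Nlrp4f and Nlrp14), and Nlrp4c, Nlrp5 and Padi6 did not. Calls came from edgeR's quasi-likelihood test and needed a p, adjusted by Benjamini and Hochberg over 16014 genes, under 0.05. In N1300T against Tet1KO, 0 of the 6 were called higher and 2 lower (Khdc3 and Nlrp4f), where 7.69% of all genes were called higher and 8.04% lower (15.7% in all). For DKO against Tet1KO, 0 were called higher and 4 lower (Khdc3, Ooep, Nlrp4a and Nlrp4f), beside 7.86% higher and 7.12% lower among all genes (15.0% in all). N1300T against DKO gave 1 higher (Nlrp4a) and 1 lower (Nlrp4f), beside 1.70% higher and 2.02% lower (3.73% in all). The 3 comparisons share libraries, and since the set was selected on such results, nothing is read from these counts.

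Between the 2 N1300T preparations, 0 of the 6 genes were called, 0 had an unadjusted p under 0.05 and DESeq2 called 0. Among all genes 0.194% were called higher and 0.169% lower in N1300T 49 (0.362% in all). The fitted differences ran from -0.28 for Nlrp14 and Tle6 (SE 0.37 and 0.24) to 0.18 ± 0.24 for Khdc3. Median log2 fold changes of the 6 genes were -0.07 for N1300T and -0.76 for DKO against Tet1KO, 0.48 for N1300T against DKO and -0.12 for N1300T 49 against N1300T 81, while the medians of all tested genes lay between -0.01 and 0.00. The -0.07 covers values of -1.87 to 0.24, so the median hides the spread within the set.

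**Figure D3:**
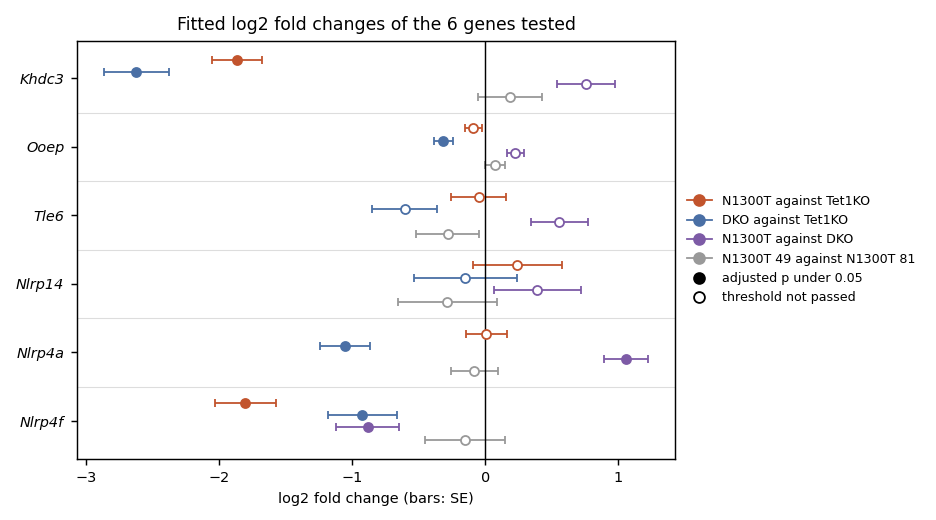
Fitted log2 fold changes (x axis, bars are SE) of the 6 genes tested (y axis) for N1300T against Tet1KO, DKO against Tet1KO, N1300T against DKO and N1300T 49 against N1300T 81, with filled points where the adjusted p was under 0.05. Khdc3 lies farthest left (-2.62 in DKO), Nlrp4a is near 0 in N1300T (0.01) and at -1.05 in DKO, and no grey point of the 2 N1300T preparations is filled.

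For 3 genes of the set the libraries kept an order by letter in every group. Khdc3 and Tle6 were highest in B and lowest in C in all 4 groups, and Nlrp4f was lowest in B and highest in C in all 4. Over all tested genes, 4.30% were highest in B in every group and 2.63% lowest in C, and 3.52% were lowest in B and 2.40% highest in C. The share of genes with a highest and a lowest letter fixed together was not computed, so nothing is read from the 3. The labels do not say what the letters mark, and their part in the levels was not tested. Within each letter, Khdc3 and Nlrp4f were lower in N1300T and in DKO than in Tet1KO.

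Relatives and partners of the set were examined from lists drawn up with earlier results known. Of 14 other Nlrp genes, 4 passed the filter, and in N1300T against Tet1KO 0 were called (0 at an unadjusted p under 0.05, 0 by DESeq2). In DKO against Tet1KO 1 was called higher, Nlrp4g at 0.502 ± 0.0553 CPM in DKO and 0.226 ± 0.0314 in Tet1KO (log2 fold change 1.15 ± 0.38, edgeR adjusted p 0.0486). That call held in only 2 of 17 alternative settings. Nlrp10, Nlrp9b and Nlrp12, at 1.60 ± 0.60, 0.63 ± 0.40 and -0.33 ± 0.45 in the same comparison, did not pass (adjusted p 0.0858, 0.322 and 0.684). The median of the 4 was 0.28 in N1300T and 0.89 in DKO, beside 0.00 and -0.01 for all genes. A scarce gene can pass the filter through the group where it is high. Nlrp10 averaged 0.343 ± 0.128 CPM in DKO and 0.120 to 0.223 CPM in the other groups, so nothing is read from these medians. Of all genes, 15.7% and 15.0% were called in these comparisons.

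Sister genes of Padi6 and Tle6 were examined in the same way. The peptidylarginine deiminases convert arginine to citrulline in proteins, and Padi4, which acts on histones, lies next to Padi6. Padi4 averaged 2.82 ± 0.258 CPM in N1300T 49, 3.09 ± 0.563 in N1300T 81, 2.10 ± 0.332 in DKO and 6.59 ± 1.12 in Tet1KO. It fell by 1.16 ± 0.14 on the log2 scale in N1300T (edgeR adjusted p 3.02e-05) and by 1.64 ± 0.18 in DKO (adjusted p 9.72e-06), and both calls held in every alternative setting. Padi2 fell in DKO (-1.34 ± 0.30, adjusted p 0.00608) and missed the threshold in N1300T (-0.73 ± 0.25, adjusted p 0.0581). In N1300T it stayed uncalled in 14 of 20 alternative settings, but was called with N1300T 49 alone. Padi3 was called lower in DKO (-1.07 ± 0.29, adjusted p 0.0185), but not when DKO B, DKO C, Tet1KO A or Tet1KO B was left out. Among the Tle genes, co-repressors recruited by many transcription factors, Tle2 rose in N1300T (0.71 ± 0.19, adjusted p 0.0177), a call lost without Tet1KO A or Tet1KO C, and Tle1, Tle3 and Tle4 were not called. Of the 7 tested relatives, 1 rose and 1 fell in N1300T and 0 rose and 3 fell in DKO, against Tet1KO, with medians of -0.05 and -0.12. Leaving out 1 library at a time gave 1 to 4 calls in N1300T and 2 to 4 in DKO. The shares called over all genes were 15.7% and 15.0%.

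Dppa5a, a KH-domain relative encoded near Ooep and a marker of pluripotent cells, averaged 1505 ± 151 CPM in N1300T 49, 1324 ± 179 in N1300T 81, 1201 ± 125 in DKO and 1340 ± 81 in Tet1KO and was not called in any of the 4 comparisons (adjusted p 0.119 to 0.702). It was the only 1 of 4 listed relatives that passed the filter, and Khdc1b had no counts. DESeq2, run without that filter, called 1 of 3 relatives, Khdc1a, higher in DKO against Tet1KO and 0 in the other comparisons. Over all genes, DESeq2 called 2349 in DKO against Tet1KO, and edgeR called 15.0% of those it tested. Khdc1a had 32 counts in the 12 libraries and none in Tet1KO, so no fold is given.

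Other genes through which the oocyte provides for the embryo were listed as well. Of 12 listed partners and maternal-effect genes, 9 were tested, and 1, Uhrf1, was called in N1300T and in DKO, each against Tet1KO, beside 15.7% and 15.0% of all genes. UHRF1 brings DNMT1 to replicating DNA. Uhrf1 averaged 692 ± 32.2, 729 ± 21.8, 698 ± 25.8 and 831 ± 47.6 CPM in N1300T 49, N1300T 81, DKO and Tet1KO, a fall of 0.23 ± 0.05 in N1300T (edgeR adjusted p 0.00470) and of 0.25 ± 0.06 in DKO (adjusted p 0.00722) on the log2 scale, held in every alternative setting. Zbed3, reported as a partner of the complex in mouse oocytes, was not called (0.02 ± 0.11 in N1300T, 0.36 ± 0.13 in DKO). Dppa3, which guards the maternal genome against demethylation after fertilisation, lay at -0.46 ± 0.16 (adjusted p 0.0611) and -0.56 ± 0.19 (adjusted p 0.0514). For Dppa3 in DKO, 8 of 18 alternative settings did call the gene. In N1300T, Dppa3 stayed uncalled in 15 of 20.

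The transcription factors that switch on oocyte genes were at or near the floor apart from 3. Tbpl2 had no counts in any library, Nobox 30 counts in all, Figla 8 and Sohlh1 12. Sohlh2, a bHLH factor of early germ cells, averaged 1.49 ± 0.568 CPM in N1300T 49, 0.508 ± 0.0217 in N1300T 81, 1.12 ± 0.106 in DKO and 2.68 ± 0.851 in Tet1KO. It fell in N1300T (-1.61 ± 0.24, edgeR adjusted p 0.000167) and in DKO (-1.24 ± 0.28, adjusted p 0.00544). With N1300T 49 alone the first call was lost. Between the preparations it was higher in N1300T 49 (1.54 ± 0.31, adjusted p 0.0374), in 8 of 18 alternative settings. Taf4b and Foxo3, expressed in many cells, were not called.

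Genes known for their part in the oocyte, its secreted factors and its zona were listed next, among them some that stem cells also transcribed, such as Kit, with group means of 137 to 178 CPM. Of 24 in the table, 8 were tested, and Oosp1, Oosp2, Oosp3, Oog1, Oog2 and Oog3 had no counts. Zp3, a zona protein gene, rose in N1300T (0.53 ± 0.10, edgeR adjusted p 0.00155) and in DKO (0.66 ± 0.11, adjusted p 0.000764), with 12.1 ± 0.738 and 13.9 ± 1.64 CPM in N1300T 49 and 81, 14.2 ± 0.664 in DKO and 9.03 ± 1.21 in Tet1KO, while Zp2 had 10 counts in all and Bmp15 32. Cpeb1, a translational regulator of stored mRNA, rose in DKO (0.78 ± 0.16, adjusted p 0.00378). Tcl1 and Kit were called lower in DKO (-0.40 ± 0.11 and -0.27 ± 0.08, adjusted p 0.0169 and 0.0304). Tcl1 lost the call without DKO A, DKO C, Tet1KO A or Tet1KO B, and Kit lost it without any 1 of the DKO libraries, without Tet1KO B or with library size alone. The list as a whole counted 1 higher and 0 lower in N1300T and 2 higher and 2 lower in DKO. Medians were 0.29 and 0.08, and 15.7% and 15.0% of all genes were called.

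Markers of other cells that could carry such RNA were measured beside these results. The 18 genes of the 2-cell-like state, a rare state of stem cell cultures, summed to 1.04 to 1.68 CPM in N1300T 49, 0.657 to 0.987 in N1300T 81, 0.843 to 1.51 in DKO and 0.718 to 1.27 in Tet1KO. Only 2 of the 18 were tested, and 0 were called in any of the 4 comparisons (0 at an unadjusted p under 0.05 with edgeR, 0 calls by DESeq2). Fibroblast markers, 14 in all, summed to 26.0 to 29.2 CPM in N1300T 49, 25.8 to 32.2 in N1300T 81, 27.1 to 29.2 in DKO and 19.1 to 21.2 in Tet1KO. Fbln2 took the largest part, at 11.4 ± 1.40, 11.4 ± 1.49, 10.8 ± 0.216 and 5.83 ± 0.932 CPM, and rose in N1300T and DKO (edgeR adjusted p 2.42e-05 and 0.000195). Of 7 fibroblast markers tested, 3 rose and 1 fell in N1300T and 3 rose and 0 fell in DKO. The 1 that fell, Pdgfrb (-0.49 ± 0.15, edgeR adjusted p 0.0384), had its highest group mean in Tet1KO (4.47 ± 0.400 CPM). Leaving out 1 library at a time gave 2 to 4 fibroblast calls in N1300T and 1 to 4 in DKO. Against Tet1KO, 15.7% of all genes were called in N1300T and 15.0% in DKO. The fibroblast sums were lower in Tet1KO, where Khdc3 and Nlrp4f were higher, and their part in the result was not tested. Among pluripotency markers, 1 of 12 rose in N1300T (Lin28a, 0.15 ± 0.04, adjusted p 0.0218, not called without Tet1KO A or Tet1KO B, with N1300T 81 alone or with no filter) and 1 fell in DKO (Tfcp2l1, -0.30 ± 0.06, adjusted p 0.00220).

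In N1300T against DKO, edgeR called 0 tested members of each of these 9 lists, with 0 to 4 per list at an unadjusted p under 0.05, and DESeq2 called 1, Kit of the oocyte-restricted list. In N1300T 49 against N1300T 81, Sohlh2 was the only list member called by either tool. Per list, edgeR there gave 0 or 1 at an unadjusted p under 0.05. Over all genes, edgeR called 3.73% in N1300T against DKO and 0.362% between the preparations.

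The nearest tested genes on either side showed which neighbours moved with the set. Rab27a, a GTPase of vesicle transport that ends 3.76 kb before Khdc3, averaged 7.44 ± 0.186 CPM in N1300T 49, 7.0 ± 1.23 in N1300T 81, 6.87 ± 0.924 in DKO and 12.7 ± 2.26 in Tet1KO. It fell by 0.81 ± 0.12 on the log2 scale in N1300T (edgeR adjusted p 0.000211) and by 0.88 ± 0.14 in DKO (adjusted p 0.000524), in every alternative setting. Rsl24d1, a ribosome biogenesis gene 6.84 kb beyond Khdc3, was not called (-0.04 ± 0.05 and -0.12 ± 0.06). Between Khdc3 and Dppa5a, 5.26 Mb away on chromosome 9, 26 genes were tested. Of these, 2 rose and 3 fell in N1300T and 2 rose and 1 fell in DKO, with medians of -0.02 and 0.03. Calls over all genes came to 15.7% and 15.0%.

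The neighbours of the other genes were mixed. Ddx43, an RNA helicase gene of the germline 17.2 kb from Ooep, rose by 0.68 ± 0.10 in N1300T (edgeR adjusted p 0.000238) and 0.65 ± 0.12 in DKO (adjusted p 0.00106). Padi4, described above, lies 2.87 kb from Padi6, and Rcc2 on the other side was not called (0.12 ± 0.05 and -0.02 ± 0.06). Gna11, a G protein gene 45.7 kb from Tle6, rose in N1300T (0.35 ± 0.06, adjusted p 0.000317) and DKO (0.53 ± 0.06, adjusted p 2.76e-05) and was lower in N1300T 49 than in N1300T 81 (-0.39 ± 0.06, adjusted p 0.00551). With N1300T 49 alone its rise was not called. Rbmxl2, an RNA-binding gene 11.3 kb from Nlrp14, rose in N1300T (0.49 ± 0.10, adjusted p 0.00335). No tested neighbour of Nlrp4a, Nlrp4c, Nlrp4f or Nlrp5 was called in any of the 4 comparisons. Those of Nlrp4f, Mfsd14b and Zfp369, lay 64.1 and 71.5 kb away. Most of the others were far off, 619 and 189 kb from Nlrp4a, 947 and 26.3 kb from Nlrp4c and 3323 and 640 kb from Nlrp5.

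**Figure D4:**
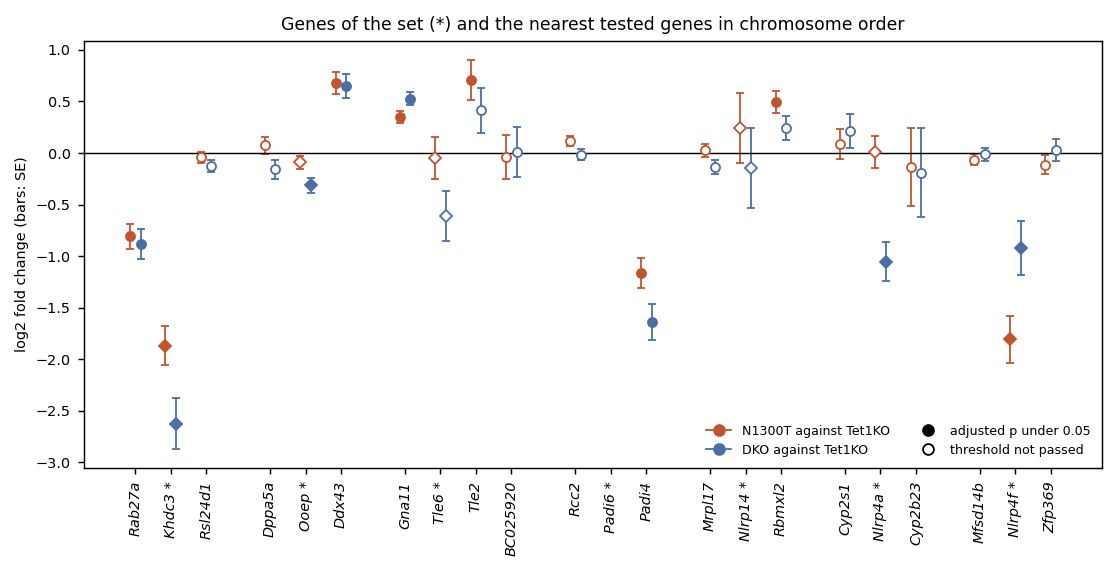
Fitted log2 fold changes (y axis, bars are SE) of genes of the set (diamonds, starred) and the nearest tested genes on either side (circles), in chromosome order within each group (x axis), for N1300T and DKO against Tet1KO, with filled symbols where the adjusted p was under 0.05. Rab27a (-0.81 and -0.88) falls beside Khdc3 and Padi4 (-1.16 and -1.64) beside Padi6, which was not tested, while Mfsd14b and Zfp369 lie near 0 on both sides of Nlrp4f.

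Likeness to each gene of the set was measured as the root-mean-square difference of centred log2 CPM over the 12 libraries, among genes of at least 1 CPM. The closest to Khdc3, whose own spread was 1.02, were Lpar5, a lysophosphatidic acid receptor gene on chromosome 6 (0.27), Nkx6-3, a homeobox gene on chromosome 8 (0.35), and Wfdc2 on chromosome 2 (0.36). Lpar5 averaged 3.45 ± 0.928, 3.64 ± 0.956, 2.30 ± 0.332 and 10.3 ± 2.26 CPM in N1300T 49, N1300T 81, DKO and Tet1KO. The closest to Nlrp4f (own spread 0.81) were Nckap1l (0.31), Fetub (0.31) and Anxa1 (0.33), and Anxa1 averaged 1.29 ± 0.316, 1.29 ± 0.491, 2.60 ± 0.331 and 3.43 ± 0.267 CPM in the same order of groups. Nlrp4a (0.48) lay closest to Ablim1 (0.22), H13 (0.22) and Pla2g4e (0.24), and H13 averaged 49.3 ± 3.16, 49 ± 2.25, 27.1 ± 0.790 and 43.9 ± 2.65 CPM. Ooep (0.14) lay closest to Ndufa9, Rpa3 and Nop10 (0.05 each), Tle6 (0.40) to Tpi1, Synj2 and Krt42 (0.17 each) and Nlrp14 (0.36) to Spef1 (0.21), Qprt (0.23) and Prdm9 (0.24). No gene was the closest to more than 1 of the set.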

How the data were processed

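The deposited table holds counts of reads per gene symbol for 12 libraries, not normalized by the authors. The submitters' processing notes name mm10 and DESeq2. The aligner, counter, annotation and strand setting are not stated by the sources used. Even values outnumbered odd ones (5990 values of 1, 20282 of 2, 3467 of 3 and 9469 of 4), so mates may have been counted singly. Intervals from the counts alone would then be too narrow, but the SEs here use the spread among libraries. With counts halved, calls were 2450 in N1300T and 2427 in DKO against Tet1KO (2520 and 2399 in the main fit). In N1300T against DKO they were 674 (597 in the main fit).

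R 4.3.3 with edgeR 4.0.16 and limma 3.58.1 was used for 1 fit across all genes: TMM factors (0.979 to 1.02), filterByExpr by group (16014 genes with 99.97% of the counts), a quasi-likelihood model (8 residual degrees of freedom, 9.11 prior) and 2-sided tests with Benjamini-Hochberg adjustment over all genes tested. N1300T is the mean of N1300T 49 and N1300T 81, each weighted equally. DESeq2 1.42.0 was an alternative, as were RLE factors, library size alone, no filter, halved counts, a block on the library letter and leaving out each library. Levels are CPM with SD. Positions and promoters came from RefSeq's GRCm38.p6 tables by symbol, and exon lengths and shared 50-base stretches from GENCODE transcripts.

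The genes of the set and all lists were chosen with earlier results of these data known. Beside the set, named genes were up to 3 per list by lowest adjusted p, the nearest tested genes on either side, the 3 genes most alike to each tested gene, and Tet1 and Tet2. Tle1, Tle3, Tle4, Padi3, Nobox, Figla, Sohlh1, Zp2, Bmp15, Kit, Tbpl2, Khdc1a, Khdc1b and the Oosp and Oog genes were named after their values had been seen. Pdgfrb was named in the same way. No replicate was pooled or left out.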

Additional observations from a re-analysis of the deposited data

How the results depend on the processing

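For single genes of the set, 424 results under alternatives kept their side of the threshold, 18 passed it anew, 14 lost it and 0 reversed a call. Of the 424, 17 uncalled values changed sign, such as Tle6 in N1300T against Tet1KO (-0.05, and 0.09 with N1300T 81 alone). Calls among all genes depended on single libraries: leaving out each in turn gave 1388 (without Tet1KO A) to 2575 in N1300T against Tet1KO, where 2520 were called, and 1386 to 2575 in DKO against Tet1KO, where 2399 were called (1386 without Tet1KO A, 1402 without DKO C, 1420 without DKO A). In N1300T against DKO, with 597 called, they gave 107 (without DKO C) to 1053 (without N1300T 81 C), with 126 without DKO A, 347 and 387 without N1300T 49 A or B, 372 without N1300T 81 B and 381 without DKO B. N1300T 49 alone gave 366, N1300T 81 alone 379 and no filter 1481. Between N1300T 49 and N1300T 81, where 58 were called, they gave 39 to 80, DESeq2 gave 91 and no filter 244. Of the set, leaving out libraries gave 3 to 5 calls in DKO against Tet1KO and 1 to 4 in N1300T against DKO, where N1300T 49 or N1300T 81 alone gave 1 and no filter gave 5. With library size alone, calls in DKO against Tet1KO split 1522 higher and 865 lower (1259 and 1140 with TMM) and in N1300T against DKO 194 and 473 (273 and 324). The causes were not tested.

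The letters do not pair the samples by any label. Correlations of same-lettered deviations ran from -0.0419 to 0.312 over 18 pairs of libraries. Pairs with a DKO library lay at -0.0419 to 0.0366, and pairs among N1300T 49, N1300T 81 and Tet1KO at 0.0662 to 0.312. Of 12 libraries, 10 correlated best with their own letter, a hint from the data and not from the design. With the letter as a replicate block, all-gene calls were 1497 in N1300T against DKO and 105 between N1300T 49 and N1300T 81, 3323 and 3281 against Tet1KO in N1300T and DKO, and calls of the set were 5 in N1300T against DKO and 5 in DKO against Tet1KO. The block called Tle6 in DKO against Tet1KO (-0.61) and Khdc3, Ooep and Tle6 in N1300T against DKO (0.71, 0.23 and 0.54), which were not called without it. Depth limits Nlrp5, at 0 or 2 counts per library, and Padi6 and Nlrp4c, with at most 12 and 16.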

Other observations

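Among Nlrp genes outside the set that failed the filter on low counts, Nlrp1a, Nlrp4b, Nlrp4d and Nlrp4e had no counts in any of the 12 libraries. Nlrp3, the sensor of the best-known inflammasome, had 47 counts in all, with 0.0663 ± 0.0139 CPM in N1300T 49, 0.0834 ± 0.0726 in N1300T 81, 0.0324 ± 0.0562 in DKO and 0.202 ± 0.0931 in Tet1KO (SD, n = 3 each). Nlrp6 had 65 counts and Nlrp9c 43. These genes were outside the main edgeR test and were chosen after their values were seen. DESeq2, run without the filter, called 0 of 10 other Nlrp genes in each of the 4 comparisons.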
